A study of Arabidopsis thaliana with 20 samples.

Results

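PPDK (locus AT4G15530) and PFPB1 (AT1G12000) were read on the Affymetrix arrays of a submergence experiment with Arabidopsis thaliana. They are 2 of the 13286 genes with a probe set of their own in the naming table used here. That table covers 14016 of the 22810 probe sets. Both genes were chosen by locus, as enzymes of carbon metabolism that make or use pyrophosphate, and each was read by 1 probe set. The plants were of the Col-0 genotype, without transgene or mutation named in the labels, and carried rosettes of 9 to 10 leaves. Shoots (rosettes) and whole roots were analysed separately. Submerged plants stood completely under water in darkness for 7 or 24 h, starting 2 h into a light period of 9 h. Dark plants stood in air for 7 or 24 h in the chamber used for submergence and were watered every other day. Light plants, taken as the 0 h group, stayed in the growth chamber and were watered daily. Each tissue therefore had 5 groups, and each of the 10 groups held 2 arrays of RNA pools from independent replicate experiments, 20 arrays in all. Values are log2 expression values made by RMA (robust multi-array average), so that a difference of 1 is a doubling.

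Pyrophosphate is a by-product of many biosynthetic reactions, and plant cells can spend it in place of ATP. PPDK, pyruvate orthophosphate dikinase, interconverts pyruvate and phosphoenolpyruvate, and the reaction that forms phosphoenolpyruvate releases pyrophosphate. In maize it feeds the carbon-concentrating cycle of photosynthesis, and in Arabidopsis it is known from ageing leaves, where it serves the export of nitrogen, and from seedlings. PFPB1 encodes a catalytic beta subunit of the pyrophosphate-dependent phosphofructokinase, which works in both directions between fructose phosphate and fructose bisphosphate, beside an ATP-dependent enzyme that runs only forward. The alpha subunits of this enzyme, encoded by PFPA1 and PFPA2, regulate it. Both reactions are known as ways by which oxygen-starved plant cells could save ATP.

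Array medians lay between 6.14 and 6.41, and the 2 arrays of a group had a Pearson's r of 0.992 to 0.996 over all probe sets. Tissue markers fitted the labels in the light. The antenna gene LHCB4.2, the 1 measured of 12 listed green-tissue markers, stood at 5.26 in light roots and 13.51 in light shoots. PYK10 and EXPA7, the 2 measured of 11 listed root markers, stood at 12.98 and 9.77 in light roots, against 9.36 and 4.43 in light shoots. Because the tissues were taken in bulk, fewer cells of a type and less RNA per cell cannot be told apart.

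PPDK had its lowest level in lit roots and rose steeply in the dark in both tissues, with or without water. In roots the arrays read 5.04 and 4.93 in the light, 10.28 and 10.31 under water at 7 h, 10.49 and 10.74 in darkness at 7 h, 9.67 and 9.92 under water at 24 h, and 10.47 and 10.03 in darkness at 24 h. In shoots they read 8.53 and 8.85 in the light, 13.13 and 13.18 under water at 7 h, 12.28 and 12.45 in darkness at 7 h, 12.82 and 12.70 under water at 24 h, and 12.72 and 12.64 in darkness at 24 h. Every dark or submerged array lay above both light arrays of its tissue, and every shoot array without light lay above every root array.

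**Figure D1:**
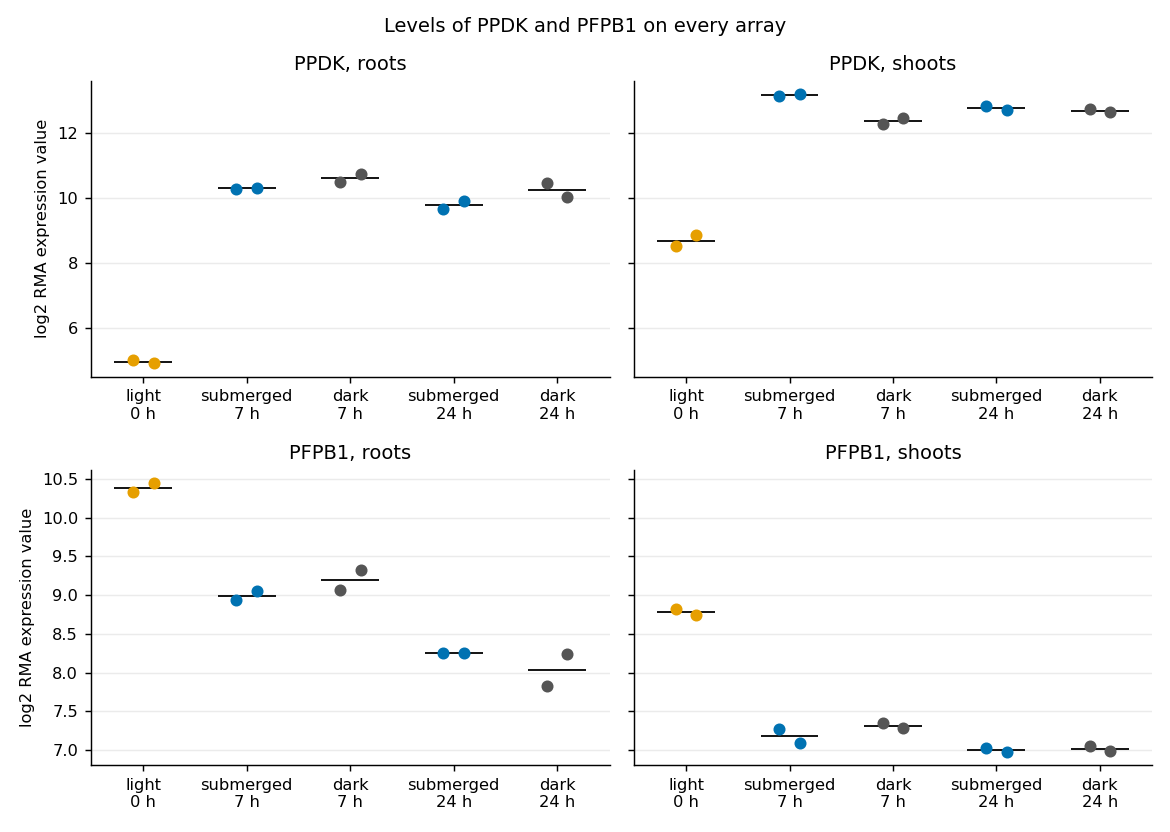
Each point is 1 array and each line the mean of 2, on the log2 RMA scale, for PPDK (top) and PFPB1 (bottom) in roots (left) and shoots (right). PPDK was lowest in the light in both tissues, at 4.98 in roots and 8.69 in shoots, whereas PFPB1 was highest there, at 10.39 and 8.78.

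Ordered by their means, the PPDK groups ran from submerged shoots at 7 h (13.15) through submerged shoots at 24 h (12.76), dark shoots at 24 h (12.68) and dark shoots at 7 h (12.36) to dark roots at 7 h (10.62). Submerged roots at 7 h (10.30), dark roots at 24 h (10.25), submerged roots at 24 h (9.80), light shoots (8.69) and light roots (4.98) followed. Arrays of neighbouring groups overlapped at 2 places in this order: submerged and dark shoots at 24 h, and submerged roots at 7 h and dark roots at 24 h.

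Dark plants in air were set against light plants, since submerged plants stood in darkness too. After 7 h PPDK averaged 10.62 ± 0.17 in dark roots and 4.98 ± 0.08 in light roots (SD, n = 2 each), a measured rise of 5.63 (SE 0.15), with an adjusted p of 5.69e-14 from limma. The light-root level lay below every array's median, and whether PPDK stood above background there is not known, so that no fold is given for roots. After 24 h dark roots averaged 10.25 ± 0.31, and the rise over light roots was 5.26 (SE 0.15, limma adjusted p = 1.38e-13). Dark shoots averaged 12.36 ± 0.12 at 7 h, against 8.69 ± 0.23 in light shoots, a rise of 3.67 (SE 0.15, limma adjusted p = 1.08e-12) or 12.7-fold. At 24 h dark shoots averaged 12.68 ± 0.06, a rise of 3.99 over light shoots (SE 0.15, limma adjusted p = 3.17e-13).

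These rises stood among many. Of all probe sets, 24.8% rose in dark roots at 7 h, 27.8% in dark roots at 24 h, 24.9% in dark shoots at 7 h and 27% in dark shoots at 24 h, at an adjusted p under 0.05. A pass alone therefore says little about PPDK. By size it ranked 174th among rises in shoots at 7 h and 152nd in shoots at 24 h, of 22746 probe sets. The light groups also differed from the dark groups in chamber and watering, so that these and darkness cannot be told apart. With light plants taken as 0 h, time of day differed too at 7 h and cannot be told apart from darkness there. The 24 h harvest then fell at the same time of day as the light plants.

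The rise was larger in roots. Tested as the root change minus the shoot change, it exceeded that in shoots by 1.96 at 7 h (SE 0.21, limma adjusted p = 9.27e-07) and by 1.27 at 24 h (SE 0.21, limma adjusted p = 0.000107). Such differences in favour of roots were called for 18.4% of probe sets at 7 h and 17.8% at 24 h. The larger change started from a much lower level, not known to be above background, since the root minus shoot difference in the light was −3.70 (SE 0.15, limma adjusted p = 2.2e-13, where 24.3% of probe sets were lower in roots).

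Roots without light also carried more transcript of green tissue. Of 41 nuclear genes with a photosystem or antenna symbol, a list taken after the values were seen, 8 were measured. In dark roots 5 of these 8 rose and 0 fell at 7 h, with changes of 0.15 to 3.93, and 4 rose and 0 fell at 24 h, with changes of −0.01 to 3.44, beside the 24.8% and 27.8% of all probe sets that rose at these times. PSB27, LHCB4.1, LHCB4.2 and PSAN rose at both times, whereas PSBY, PSAE-1 and LHCB4.3 did not pass at either time, with changes of −0.01 to 0.66.

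On the linear scale the summed level of the 8 genes was 2487 to 2730 in dark roots at 7 h, 2219 to 2608 in dark roots at 24 h and 354 to 548 in light roots. It was 2156 to 2208 in submerged roots at 7 h and 1527 to 1996 in submerged roots at 24 h. In shoots the sum lay between 56194 and 88188 on all arrays. The sum of the 2 root markers was 3550 to 3687 in dark roots at 7 h and 1912 to 2074 in dark roots at 24 h, against 7734 to 10430 in light roots.

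PPDK and the photosystem sum did not stand in 1 ratio between the tissues. The photosystem sum in dark roots was 3.31% of that in dark shoots at 7 h and 3.60% at 24 h, whereas PPDK in dark roots was 29.8% of its level in dark shoots at 7 h and 18.5% at 24 h. Under water PPDK in roots was 13.8% of its shoot level at 7 h and 12.8% at 24 h, against 3.74% and 3.05% for the photosystem sum. Nor did the 8 genes share 1 ratio among themselves. In darkness at 7 h PSB27 stood at 9.80 in roots and 13.43 in shoots, and PSBY at 6.30 and 13.15. The part of green-tissue transcripts in the PPDK level of roots was not tested.

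**Figure D2:**
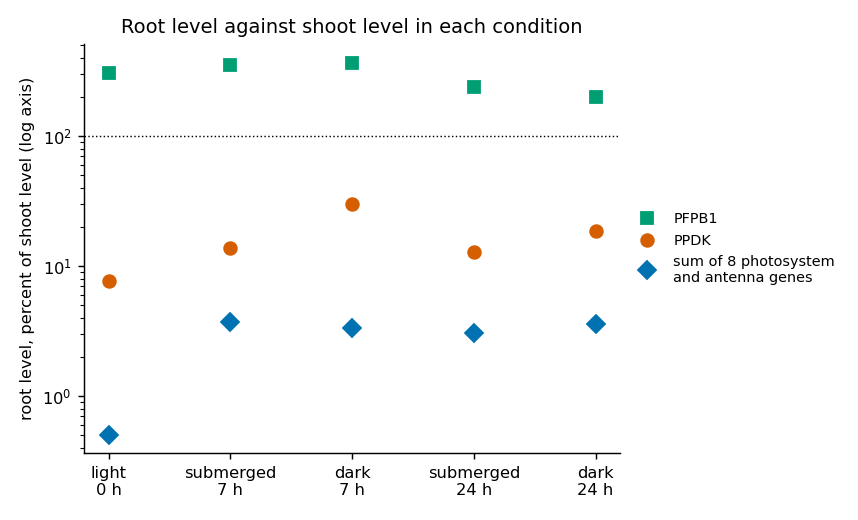
Root level as a percentage of the shoot level in the same condition, on a log axis, for PFPB1, PPDK and the summed level of 8 photosystem and antenna genes, from means of log2 values over 2 arrays. Without light the photosystem sum lay between 3.05% and 3.74%, PPDK between 12.8% and 29.8%, and PFPB1 between 201% and 368%. The light points of PPDK and the photosystem sum rest on root levels not known to be above background.

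Submergence for 7 h raised PPDK further in shoots. Submerged shoots averaged 13.15 ± 0.03 and dark shoots of the same age 12.36 ± 0.12 (SD, n = 2 each). The rise was 0.79 (SE 0.15, 95% interval 0.47 to 1.11) or 1.73-fold, with a limma adjusted p of 0.00134, in a comparison where 6.52% of probe sets rose. Both submerged arrays lay above both dark arrays, and this was the highest PPDK level of the 10 groups. In the same comparison 2 of the 8 photosystem and antenna genes fell and 0 rose, where 7.14% of all probe sets fell. Their summed linear level was 57727 to 59139 in submerged shoots and 78158 to 79284 in dark shoots. The sum of the 2 root markers was 277 to 309 in submerged shoots and 516 to 655 in dark shoots. PYK10 stood at 8.08 in submerged and 9.13 in dark shoots, and 1 of the 2 was called as a fall. EXPA7 stood at 4.45 and 4.31, below every array's median. The part of these shifts in the PPDK result was not tested. By 24 h no such difference was detectable. Submerged shoots averaged 12.76 ± 0.08 and dark shoots 12.68 ± 0.06, a difference of 0.08 (SE 0.15, 95% interval −0.24 to 0.40, limma adjusted p = 0.83), and the arrays overlapped. The shrinking of the submergence effect from 7 to 24 h measured −0.71 (SE 0.21) and did not pass itself (limma adjusted p = 0.107). Changes of that kind were called for 2% of probe sets in shoots and 1.45% in roots, where PPDK stood at −0.13 (SE 0.21, limma adjusted p = 0.86). Both shares were lower whichever array of the comparison was left out. Each such fit leaves 1 array in a group, so that lost precision and an unusual array cannot be told apart by these counts.

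In submerged roots PPDK did not rise above the dark level. At 7 h submerged roots averaged 10.30 ± 0.02 and dark roots 10.62 ± 0.17, a difference of −0.32 (SE 0.15, 95% interval −0.64 to 0.00, limma adjusted p = 0.229). At 24 h submerged roots averaged 9.80 ± 0.17 and dark roots 10.25 ± 0.31, a difference of −0.45 (SE 0.15, 95% interval −0.77 to −0.13, limma adjusted p = 0.133). Submerged arrays lay below dark arrays at both times without overlap, yet neither comparison passed. Without the lower dark array of 24 h, replicate 2, the difference at 24 h was −0.67 and passed (limma adjusted p = 0.0447).

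The tissues differed in how PPDK answered water at 7 h. The root change minus the shoot change was −1.11 (SE 0.21, limma adjusted p = 0.00333), where 3.86% of probe sets were called in that direction. At 24 h the same difference was −0.53 (SE 0.21) and did not pass (limma adjusted p = 0.173), where 6.86% of probe sets passed in either direction.

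Root levels stayed below shoot levels in all conditions, with comparisons outside the light added after the values were seen. The root minus shoot difference was −1.75 in darkness at 7 h (where 22.2% of probe sets were lower in roots) and −2.44 in darkness at 24 h (22.7%). Under water it was −2.85 at 7 h (22.8%) and −2.96 at 24 h (23.3%). Each of these had an SE of 0.15 and a limma adjusted p of 1.66e-08 or lower.

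Harvests at 7 and 24 h fell at different times of day. Time of day and length of treatment therefore cannot be told apart in any comparison of 24 h with 7 h. Between 7 and 24 h PPDK had 1 call. Its change was −0.37 in dark roots (limma adjusted p = 0.0937) and 0.32 in dark shoots (limma adjusted p = 0.169, where 18.4% of probe sets passed in either direction), each with an SE of 0.15. Submerged roots fell by 0.50 (SE 0.15, limma adjusted p = 0.0345, where 8.08% of probe sets fell), a comparison added after the values were seen, and this call was lost when any 1 of its 4 arrays was left out. Submerged shoots changed by −0.39 without passing (SE 0.15, limma adjusted p = 0.0863, where 18% of probe sets passed in either direction).

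PFPB1 ran the other way. It was most abundant in lit roots and fell in the dark in both tissues. In roots the arrays read 10.33 and 10.44 in the light, 8.93 and 9.05 under water at 7 h, 9.07 and 9.32 in darkness at 7 h, 8.25 and 8.25 under water at 24 h, and 7.83 and 8.24 in darkness at 24 h. In shoots they read 8.81 and 8.75 in the light, 7.28 and 7.09 under water at 7 h, 7.35 and 7.28 in darkness at 7 h, 7.03 and 6.98 under water at 24 h, and 7.05 and 6.99 in darkness at 24 h. Every dark or submerged array lay below both light arrays of its tissue. In the order of means, light roots came first (10.39) and submerged shoots at 24 h last (7.01), and only the last pair, dark and submerged shoots at 24 h, had overlapping arrays. Several other neighbours in that order had means only 0.13 to 0.22 apart, and their arrays lay closer. The nearest arrays of dark and submerged shoots at 7 h read 7.2812 and 7.2789. Those of submerged and dark roots at 24 h read 8.2479 and 8.2357.

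In darkness the fall of PFPB1 continued in roots. Dark roots averaged 9.19 ± 0.18 at 7 h, against 10.39 ± 0.08 in light roots (SD, n = 2 each), a change of −1.19 (SE 0.13, limma adjusted p = 9.16e-07). By 24 h they averaged 8.03 ± 0.29, a change of −2.36 from light roots (SE 0.13, limma adjusted p = 1.26e-10) or 5.12-fold down. From 7 to 24 h of darkness roots fell by 1.16 (SE 0.13, limma adjusted p = 1.08e-05), where 12.7% of probe sets fell. Time of day also differed between these harvests, so that it and the length of darkness cannot be told apart. Both root markers fell as well in dark roots against light roots, PYK10 with changes of −1.21 at 7 h and −2.13 at 24 h, and EXPA7 with changes of −2.85 at 7 h and −2.65 at 24 h. Their part in the PFPB1 result was not tested.

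Shoots reached most of their fall by 7 h. Dark shoots averaged 7.31 ± 0.05 at 7 h, against 8.78 ± 0.05 in light shoots, a change of −1.47 (SE 0.13, limma adjusted p = 3.86e-08). At 24 h they averaged 7.02 ± 0.04, a change of −1.76 (SE 0.13, limma adjusted p = 2.68e-09). The further change of −0.29 from 7 to 24 h did not pass (SE 0.13, limma adjusted p = 0.154). Falls were called for 22.1% of probe sets in dark roots at 7 h, 25% in dark roots at 24 h, 24% in dark shoots at 7 h and 25.4% in dark shoots at 24 h. By size PFPB1 ranked 579th among falls in roots at 24 h and between 1569th and 1720th in the other 3 comparisons, of 22746 probe sets.

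Roots lost more PFPB1 than shoots by 24 h, but by a margin that depended on single arrays. The root change minus the shoot change was −0.60 at 24 h (SE 0.19, limma adjusted p = 0.0183, where 21.8% of probe sets were called in that direction). It did not pass without root light replicate 2 (0.0603), root dark 24 h replicate 1 (0.121), shoot dark 24 h replicate 1 (0.0564) or shoot light replicate 2 (0.0538). At 7 h the difference was 0.27 (SE 0.19, limma adjusted p = 0.289).

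No effect of water on PFPB1 passed. Submerged roots averaged 8.99 ± 0.08 and dark roots 9.19 ± 0.18 at 7 h, a difference of −0.20 (95% interval −0.49 to 0.08, limma adjusted p = 0.419). At 24 h submerged roots averaged 8.25 ± 0.00 and dark roots 8.03 ± 0.29, a difference of 0.22 (95% interval −0.06 to 0.50, limma adjusted p = 0.522). In shoots the difference was −0.13 at 7 h (95% interval −0.41 to 0.15, limma adjusted p = 0.666) and −0.02 at 24 h (95% interval −0.30 to 0.27, limma adjusted p = 0.97). The intervals leave room for changes of up to about 0.50 in either direction. Calls in either direction were made for 8.69% of probe sets in submerged roots at 7 h, 3.22% in submerged roots at 24 h, 13.7% in submerged shoots at 7 h and 11.9% in submerged shoots at 24 h.

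Differences in the water response between tissues or times did not pass for PFPB1 either. The root change minus the shoot change was −0.07 at 7 h and 0.23 at 24 h, and the change of the response from 7 to 24 h was 0.42 in roots (limma adjusted p = 0.315) and 0.12 in shoots (limma adjusted p = 0.88), each with an SE of 0.19. PFPB1 did fall while roots stood under water, by 0.74 from 7 to 24 h (SE 0.13, limma adjusted p = 0.00125). The change in submerged shoots was −0.18 (SE 0.13, limma adjusted p = 0.439). Both comparisons were added after the values were seen, and in both the length of submergence and the time of day cannot be told apart. The summed linear level of the 2 root markers was 4035 to 4307 in submerged roots at 7 h and 1077 to 1407 at 24 h. PYK10 stood at 11.93 and 9.97 at these times and EXPA7 at 8.07 and 7.81, and only 1 of the 2 was called as a fall. Their part in the fall of PFPB1 in submerged roots was not tested.

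**Figure D3:**
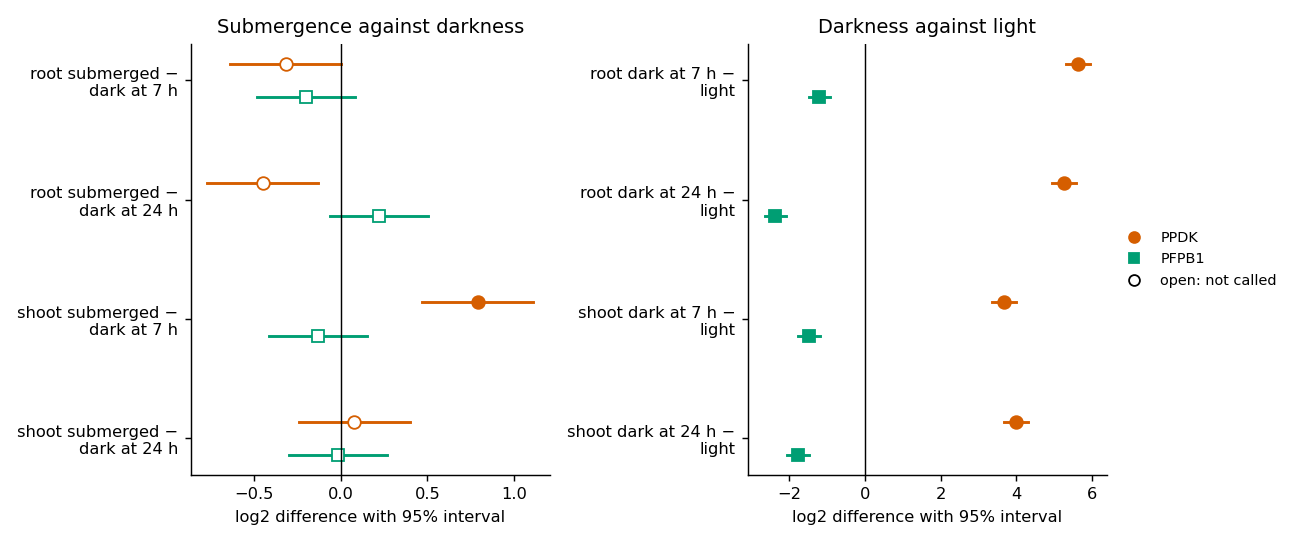
Log2 differences of PPDK (circles) and PFPB1 (squares) with 95% intervals from limma, for submerged minus dark tissue on the left and dark minus light tissue on the right, on axes of different length. Open symbols did not pass an adjusted p of 0.05. In darkness PPDK lies right of 0, at 3.67 to 5.63, and PFPB1 left of 0, at −1.19 to −2.36.

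PFPB1 was the more abundant in roots throughout. In the light roots lay 1.61 above shoots (SE 0.13, limma adjusted p = 6.38e-09), where 34.9% of probe sets were higher in roots. In comparisons added after the values were seen, roots lay 1.88 above shoots in darkness at 7 h (where 28.7% of probe sets were higher in roots) and 1.01 above in darkness at 24 h (25.9%). Under water they lay 1.81 above at 7 h (26.3%) and 1.24 above at 24 h (27.2%). All 4 passed, with limma adjusted p-values of 4.29e-06 or lower.

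The other measured subunit genes of the enzyme were PFPA1 (AT1G20950) and PFPA2 (AT1G76550). With PPDK and PFPB1 they made up the 4 measured of 19 listed pyrophosphate enzymes. The naming table used here covers 14016 of the 22810 probe sets. Neither the beta subunit gene PFPB2 nor any soluble or proton-pumping pyrophosphatase on that list had an entry of its own there. These genes were therefore not analysed here. PFPA1 followed PFPB1. Its arrays read 9.14 and 9.34 in dark roots at 24 h, against 11.36 and 10.99 in light roots, and 7.89 and 7.66 in dark shoots at 24 h, against 10.39 and 10.37 in light shoots. It fell in all 4 darkness comparisons, with changes of −1.02 in roots at 7 h, −1.93 in roots at 24 h, −2.22 in shoots at 7 h and −2.61 in shoots at 24 h, each with an SE of 0.17 and a limma adjusted p of 7.64e-05 or lower.

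PFPA2 changed less. Its arrays read 9.12 and 9.16 in dark roots at 24 h, against 9.98 and 9.87 in light roots, a fall of 0.79 (SE 0.14, limma adjusted p = 8.42e-05). Dark shoots at 7 h read 7.73 and 7.69, against 8.17 and 8.02 in light shoots, a fall of 0.38 (SE 0.14, limma adjusted p = 0.0264). The other darkness changes of PFPA2 were −0.07 in roots at 7 h (limma adjusted p = 0.722) and −0.31 in shoots at 24 h (limma adjusted p = 0.0708). Under water PFPA2 was the 1 measured subunit gene with a call. Submerged shoots at 24 h read 7.22 and 7.48, against 7.91 and 7.66 in dark shoots, a fall of 0.44 (SE 0.14, limma adjusted p = 0.0437, where 6.02% of probe sets fell).

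**Figure D4:**
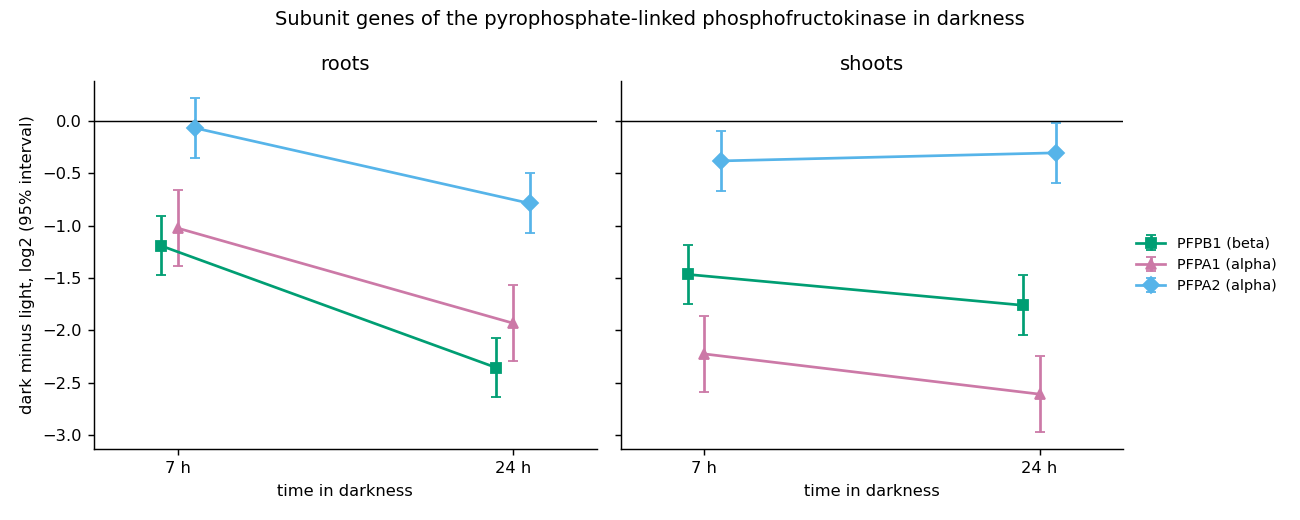
Log2 change of PFPB1, PFPA1 and PFPA2 after 7 and 24 h of darkness against light, in roots (left) and shoots (right), with 95% intervals from limma. PFPB1 and PFPA1 lie between −1.02 and −2.61, and PFPA2 between −0.07 and −0.79.

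The measured subunit genes differed in which tissue showed the larger fall. The darkness fall of PFPA1 was larger in shoots than in roots, the root change minus the shoot change being 1.20 at 7 h (SE 0.24, limma adjusted p = 0.000636) and 0.68 at 24 h (SE 0.24, limma adjusted p = 0.0337). For PFPB1 that difference was negative at 24 h, as given above. For PFPA2 it was 0.32 at 7 h (limma adjusted p = 0.223) and −0.48 at 24 h (limma adjusted p = 0.0567).

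In counts over the 4 measured pyrophosphate enzymes, PPDK was the 1 gene that rose in each darkness comparison. Falls numbered 2 in roots at 7 h, 3 in roots at 24 h, 3 in shoots at 7 h and 2 in shoots at 24 h, all of them subunit genes, where 22.1%, 25%, 24% and 25.4% of all probe sets fell. The median change of the 4 was −0.55, −1.36, −0.92 and −1.03 in that order of comparisons, against 0.08, 0.10, 0.00 and 0.03 over all probe sets. Under water 0 of 4 were called in roots at 7 h or 24 h, where 8.69% and 3.22% of all probe sets were called in either direction. In shoots PPDK rose at 7 h and PFPA2 fell at 24 h, where 6.52% of all probe sets rose and 6.02% fell, respectively.

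Over the 10 group means, PPDK and PFPB1 correlated with r = −0.91, and over the 5 groups of a tissue with r = −0.80 in roots and −0.98 in shoots. Among root groups without light the genes did not run inversely, as both had higher means at 7 h than at 24 h. PPDK stood at 10.62 (dark) and 10.30 (submerged) at 7 h, against 10.25 and 9.80 at 24 h. PFPB1 stood at 9.19 and 8.99, against 8.03 and 8.25. No r was computed without the light groups. PFPB1 correlated with PFPA1 with r = 0.97 and with PFPA2 with r = 0.88 over the 10 groups, and PPDK with PFPA1 with r = −0.92. These r values are descriptions of a few points read from the same arrays. Within each tissue the light group held the lowest PPDK and the highest PFPB1 mean. Over the 10 groups light roots held 1 end for both genes, and submerged shoots the other (13.15 for PPDK at 7 h, 7.01 for PFPB1 at 24 h). Differences between roots and shoots therefore also enter the r over 10 groups.

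**Figure D5:**
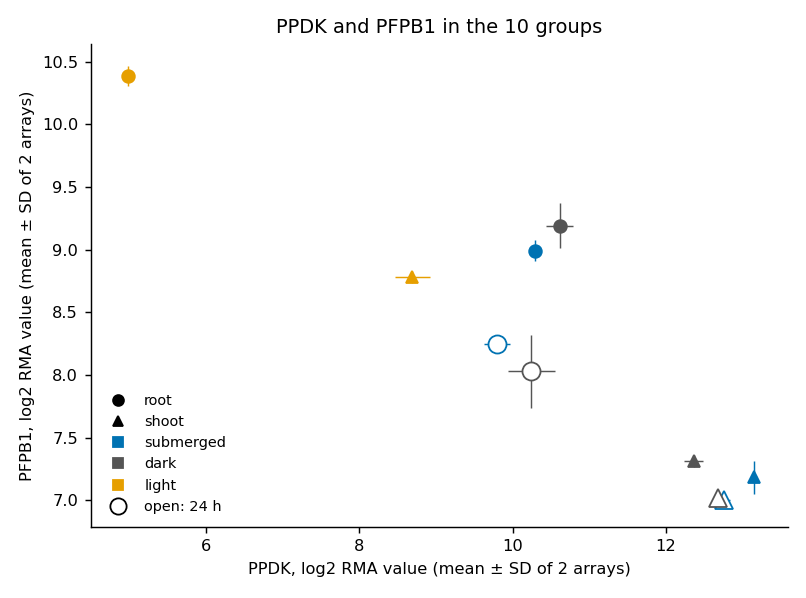
Mean log2 level of PFPB1 against that of PPDK in the 10 groups, with bars for the SD of 2 arrays. Circles are roots, triangles shoots, and open symbols 24 h. Light roots lie at the upper left (4.98 and 10.39), and dark and submerged shoots lie together at the lower right.

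The neighbouring reactions were read through few genes. Of 23 listed ATP-linked counterparts 7 were measured. In darkness 2 rose and 2 fell in roots at 7 h, 1 rose and 2 fell in roots at 24 h, 2 rose and 1 fell in shoots at 7 h, and 1 rose and 1 fell in shoots at 24 h. Their medians were 0.22, 0.17, 0.06 and 0.01 in that order, against 0.08, 0.10, 0.00 and 0.03 over all probe sets. With 24.8% to 27.8% of all probe sets rising and 22.1% to 25.4% falling in these comparisons, such counts among 7 genes are near the background. Pyruvate kinase, which turns phosphoenolpyruvate into pyruvate, had 6 measured genes. AT5G56350 fell in dark roots, with changes of −1.01 at 7 h and −1.72 at 24 h, but rose in dark shoots, by 0.54 at 7 h and 0.62 at 24 h, and the root change minus the shoot change was −1.55 at 7 h and −2.34 at 24 h (limma adjusted p of 9.16e-06 and 6.07e-08).

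AT5G08570 rose by 0.43 in dark roots at 7 h and fell in dark shoots, with changes of −0.64 at 7 h and −0.38 at 24 h. AT5G63680 fell in dark roots, with changes of −0.33 at 7 h and −0.43 at 24 h, and rose by 0.50 in dark shoots at 7 h. The other 3 pyruvate kinase genes had no call in the darkness or submergence comparisons. Their group means lay between 4.07 and 5.06, below every array's median, so that changes in them may have been missed. AT5G64380, of the fructose bisphosphatase family, was kept on this list although such an enzyme uses no ATP. It rose by 1.50 and 1.63 in dark roots at 7 and 24 h, with limma adjusted p-values of 9.26e-08 and 1.92e-08. Its levels of 4.29 in light roots and 5.78 and 5.91 in dark roots at 7 and 24 h lay below every array's median. Whether they stood above background is not known. Under water 0 of the 7 were called in roots at 7 h or 24 h, where 8.69% and 3.22% of all probe sets were called in either direction. In submerged shoots AT5G63680 rose by 0.37 at 7 h (limma adjusted p = 0.0493, where 6.52% of all probe sets rose). AT5G08570 fell by 0.53 in submerged shoots at 24 h (limma adjusted p = 0.00923, where 6.02% of all probe sets fell).

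Of 19 listed genes of the glycolytic steps between hexose phosphate and phosphoglycerate 4 were measured, and those called fell. In darkness 2 fell in roots at 7 h, 4 in roots at 24 h, 2 in shoots at 7 h and 3 in shoots at 24 h, with 0 rising and medians of −0.42, −0.88, −0.63 and −0.85, where 22.1%, 25%, 24% and 25.4% of all probe sets fell. The phosphoglycerate kinase gene PGK2 fell by 2.36 in dark shoots at 24 h (SE 0.16, limma adjusted p = 6.24e-10). PGK2 stood at 11.46 in light shoots and 9.52 in light roots, and whether its enzyme serves glycolysis or photosynthesis was not tested. The triose-phosphate isomerase gene TPI fell by 1.18 in dark roots at 24 h (SE 0.12, limma adjusted p = 1.31e-07). The cytosolic glucose phosphate isomerase gene AT5G42740 fell in all 4 darkness comparisons, with changes of −0.52 to −1.20. The glyceraldehyde phosphate dehydrogenase gene GAPC2 fell in dark roots, with changes of −0.51 at 7 h and −0.60 at 24 h. Under water the 1 call was AT5G42740 in shoots at 7 h, a fall of 0.54 (SE 0.16, limma adjusted p = 0.0301, where 7.14% of all probe sets fell).

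At the phosphoenolpyruvate and pyruvate node 3 of 23 listed genes were measured. ENO3, listed as an enolase, which makes phosphoenolpyruvate, fell in all 4 darkness comparisons, with changes of −0.51 to −1.49, and had no call under water. Pyruvate decarboxylase PDC2 rose in dark roots by 2.80 at 7 h and 1.81 at 24 h and in dark shoots by 1.56 at 7 h. Under water PDC2 rose in roots by 1.66 at 7 h and 2.50 at 24 h, where PPDK had no call, while in shoots at 7 h PDC2 did not pass (0.46) and PPDK did. The lactate dehydrogenase gene LDH1 fell in all 4 darkness comparisons, with changes of −0.73 to −1.11, and rose under water in roots by 1.72 at 7 h and 2.05 at 24 h and in shoots by 0.55 at 7 h. The 8 listed sucrose-cleaving genes had no entry of their own in the naming table and were not analysed here.

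The genes whose group means ran most like those of each enzyme were sought among 7523 probe sets that named 1 gene and ranged over at least 1 log2 unit. For PPDK they were AT3G11560 (r = 0.994), AT1G49180 (0.981), AT1G23390 (0.979), AT5G24490 (0.978) and AT1G55000 (0.974), over 10 groups. AT5G24490 came nearest in size, with 11.55 in dark roots at 7 h against 7.14 in light roots, and 13.89 in dark shoots at 7 h against 11.12 in light shoots. For PFPB1 they were AT1G05210 (r = 0.988), AT1G68650 (0.987), the isocitrate dehydrogenase gene IDH-VI (0.984), AT4G12650 (0.982) and AT1G76240 (0.982). IDH-VI stood at 8.04 in dark roots at 24 h against 10.07 in light roots, and at 7.14 in dark shoots at 24 h against 8.22 in light shoots.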

How the data were processed

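Total RNA of roots and shoots, 500 ng a sample, was labelled and hybridised to 20 arrays, per the labels. The authors deposited log2 values made by RMA in the affy package, per the submitters' processing notes, which give no version, and the genome build is not given in the sources used here. RMA subtracts background, quantile-normalizes and summarises probes, which narrows large differences, and no detection calls were used. Of 22810 probe sets 64 controls were left out. Names came from a platform table (13513 probe sets with 1 gene, 503 with several) and the TAIR10.1 RefSeq table, which matched 13436. The probe sets were 245528_at for PPDK, for which RefSeq lists 7 transcripts, and 264386_at for PFPB1. Where genes had several probe sets, the brightest was taken. Which PPDK transcripts the probe set reads was not analysed here.

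limma 3.58.1 (R 4.3.3; lmFit, eBayes) was fitted to the means of 10 groups over all 22746 probe sets, tested on simulated data first, with two-sided tests, Benjamini-Hochberg adjustment per comparison and a threshold of 0.05. The number of arrays, 2 a group from independent replicate experiments per the labels, limits the precision. Named genes were both enzymes, every measured pyrophosphate enzyme, up to 4 called genes with the largest changes per list and comparison, and the 5 most similar courses for each enzyme. Members and lists were chosen with earlier results of these data known. Replicate numbers did not pair samples: differences between replicates 1 and 2 correlated between groups with r of −0.14 to 0.16. Alternatives were a low-value filter (log2 over 6 on at least 2 arrays), 1-gene probe sets, renormalization, median centring, 1 tissue, no light arrays, a variance trend with robust estimation, a replicate block, a minimum change of 1, and leaving out each array.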

Additional observations from a re-analysis of the deposited data

Results flagged for a closer look

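Changes that differed between roots and shoots by a test of the difference itself were looked at again. In groups of 2 arrays no array could be tested as lying apart. For PPDK the root change minus the shoot change was −1.11 under water at 7 h (SE 0.21, limma adjusted p = 0.00333), 1.96 in darkness at 7 h (SE 0.21, limma adjusted p = 9.27e-07) and 1.27 in darkness at 24 h (SE 0.21, limma adjusted p = 0.000107). All 3 kept their direction and passed under every alternative run. For PFPB1 it was −0.60 in darkness at 24 h (SE 0.19, limma adjusted p = 0.0183), the call that rested on single arrays. For PFPA1 it was 1.20 in darkness at 7 h (SE 0.24, limma adjusted p = 0.000636) and 0.68 at 24 h (SE 0.24, limma adjusted p = 0.0337).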

How the results depend on the processing

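The 20 arrays, 2 a group, limit what could be called, and the deposited values carry no detection calls, so that whether PPDK in light roots stood above background is not known. Apart from leaving out arrays, 166 recomputed values of PPDK and 167 of PFPB1 kept their direction and their side of the threshold, with 2 exceptions for PPDK and 1 for PFPB1. These were the PPDK change in submerged roots from 7 to 24 h, which lost its call under median centring (−0.43) and with root arrays alone (−0.50), and the uncalled difference of PFPB1 in submerged shoots at 24 h, which was 0.0128 when values were quantile-normalized again. Leaving out 1 array at a time gave ranges of −0.62 to −0.38 for that PPDK change, which lost its call each time, −0.67 to −0.23 for PPDK in submerged roots at 24 h, −0.59 to −0.15 for PPDK in dark roots from 7 to 24 h, and −0.35 to 0.09 for the change of its root water response from 7 to 24 h. The first of the last 3 passed without root dark 24 h replicate 2, the second passed without root dark 24 h replicate 1 (limma adjusted p = 0.0253), and the third turned its sign without the same array, at 0.0862. For PFPB1 the ranges were −0.0459 to 0.0158 for submerged shoots at 24 h (0.0158 without shoot dark 24 h replicate 1, 0.0135 without shoot submerged 24 h replicate 2), −0.20 to 0.06 for the root minus shoot water response at 7 h (0.0564 without root dark 7 h replicate 2, 0.024 without shoot submerged 7 h replicate 1) and −0.80 to −0.39 for the root minus shoot darkness response at 24 h. The rise of PPDK in submerged shoots at 7 h passed throughout, at 0.71 to 0.88 with limma adjusted p-values of 0.000255 to 0.0259. With a minimum change of 1 the calls among ATP-linked genes over 8 comparisons numbered 4, against 14, and among glycolytic genes 3, against 12, as a stricter rule must give fewer. Without the light arrays the 4 submergence comparisons gave 2 glycolytic calls, against 1, and the cause was not tested. Median centring moved the median of all probe sets by up to 0.17, in roots against shoots in the light. Among 13436 probe sets naming 1 gene, fewer were tested and fewer called (359 in submerged roots at 24 h, against 732). With root arrays alone 91 probe sets changed their water response from 7 to 24 h, against 330. Leaving out any 1 array of submerged roots against dark roots gave fewer calls over all probe sets, at 7 h and at 24 h. The same held for submerged shoots against dark shoots. Each such fit leaves 1 array in a group, so that fewer calls there need not mark an unusual array. The replicate number as a block changed no call of PPDK or PFPB1. PPDK in submerged shoots at 7 h then stood at 0.79 with a limma adjusted p of 0.00195, and the pyrophosphate enzymes had 16 calls in both fits. All listed alternatives were run where they gave a value.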
